A study of Mus musculus with 12 samples.

Results

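The 9 genes described here encode the machinery that holds an autophagosome or late endosome against a lysosome before the membranes fuse. They were taken from the count table by gene name and make up 9 of its 24062 rows. *Vps11*, *Vps16*, *Vps18*, *Vps33a*, *Vps39* and *Vps41* encode the 6 subunits of HOPS (homotypic fusion and protein sorting), *Vps8* a subunit of the related CORVET complex, and *Plekhm1* and *Epg5* additional tethers. The selection rule is this list of names and holds no threshold on a measured value. The list was chosen with earlier results of these data known.

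The RNA-Seq libraries came from mouse embryonic fibroblasts (MEFs) that expressed a short hairpin RNA (shRNA) against the *Renilla* luciferase, a target mouse cells do not have (shRenilla, the control), or against *Bruce*, the gene listed as *Birc6* (shBruce). BRUCE is a giant ubiquitin-conjugating enzyme and member of the inhibitor of apoptosis family. Each line was kept in full medium (FM) or starved for 2 h in medium without serum and amino acids (Starv), with 3 libraries in each of the 4 conditions and 12 in all. Each arm is thus 1 hairpin in cultured fibroblasts, and effects of the hairpin itself cannot be told apart from loss of BRUCE. The labels do not say whether replicates were separate cultures, so p-values measure only the spread between these libraries, which may be technical.

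Autophagosomes carry cytoplasmic cargo to lysosomes, where it is degraded. HOPS bridges the membranes: Vps41 and Vps39, at its ends, bind small GTPases on the membranes to be joined, and Vps33a, held by Vps16, guides the SNARE proteins that drive fusion. CORVET shares the Vps11, Vps16, Vps18 and Vps33a core but carries Vps8 and the Vps39-related protein Tgfbrap1 in place of Vps41 and Vps39, and acts at early endosomes.

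Library totals ran from 7717265 to 18510540 counts. The lowest was that of shBruce Starv replicate 1, and the next lowest was 13200393 in shBruce Starv replicate 2. *Birc6* was lower in shBruce than in shRenilla by a log2 fold change of -1.75 in FM (SE 0.25, edgeR adjusted p = 0.0627) and of -1.98 in Starv (SE 0.25, edgeR adjusted p = 0.0186), so in FM the targeted gene itself did not pass the 0.05 threshold. Of 9 fibroblast markers, 8 passed the filter on low counts (*Thy1* did not), with summed normalized counts of 130200 to 198500 per library. The summed counts were 2.12 to 44.4 for 4 epithelial, 72.4 to 143 for 4 leukocyte, 6.94 to 63.2 for 3 endothelial and 0.816 to 8.54 for 2 pluripotency markers. Normalized counts here are raw counts scaled by edgeR's TMM library sizes.

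All 9 genes passed the filter that kept 12154 genes, with raw counts of 159 to 2310 in single libraries. *Vps18* and *Vps39* lie on chromosome 2 (GRCm38, chr2:119288740-119298453 on the plus strand and chr2:120316461-120353137 on the minus strand), as does *Vps16* (chr2:130424339-130444269, plus strand). *Vps11* lies on chromosome 9, *Vps33a* on 5, *Vps41* on 13, *Vps8* on 16, *Plekhm1* on 11 and *Epg5* on 18. *Vps16* shares 109 exon bases with *Pced1a* on the opposite strand and *Plekhm1* shares 334 with the antisense gene *Arhgap27os1*. The counting is not stated to use strand, so reads from these partners cannot be told apart.

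Many lysosomal and autophagy genes carry the motif TCACGTGA, bound by TFEB and its relatives, transcription factors that enter the nucleus when amino acids are withdrawn. RefSeq promoter windows (GRCm38.p6, 250 bases before to 50 after the start) were at hand for 6 of the 9 genes, not for *Vps11*, *Vps39* or *Epg5*, and both strands were searched. *Vps16* and *Vps33a* hold the motif and *Vps18*, *Vps41*, *Plekhm1* and *Vps8* do not. Of all 32851 windows, 0.974% hold TCACGTGA and 7.15% hold its inner part CACGTG. The last 30 bases before the start are shown for both genes with a match and for *Vps18*, which has none. After starvation *Vps18* was called in shBruce but not in shRenilla, and *Vps16* and *Vps33a* in neither line. The gene called in shRenilla, *Vps39*, had no window. Over 22 alternative fits, the log2 fold change of *Vps18* was 0.24 to 0.35 in shRenilla and 0.28 to 0.42 in shBruce. That of *Vps33a* was 0.19 to 0.32 and 0.18 to 0.37, ranges that overlap those of *Vps18*. *Vps18* was called in 5 and 9 of those fits and *Vps33a* in 1 and 2. *Vps16* was at -0.22 to -0.09 and -0.27 to -0.11. Whether the motif bears on the response to starvation was not tested. Capitals mark TCACGTGA.
Vps16: aggcggcctcgTCACGTGAccccgaagggc
Vps33a: aTCACGTGAacgtcccgTCACGTGAcgcag
Vps18: ctgaaaaacccggaagcacgtcataagcac
They lie at chr2:130424290-130424319 (plus strand), chr5:123573016-123573045 (minus strand) and chr2:119288712-119288741 (plus strand). In *Vps33a* the inner CACGTG begins 28 and 12 bases before the RefSeq start. The GENCODE gene begins further upstream and takes in 23 of the 30 bases shown. A match is a description of the letters and not a bound site.

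Per kb of annotated exon, the core subunits *Vps33a*, *Vps16* and *Vps11* stood highest in control MEFs in FM. *Vps39*, the tethers *Epg5* and *Plekhm1* and CORVET's *Vps8* stood lowest. Levels were set between genes as normalized counts per kb of exon, over all bases in any annotated exon of the gene. The order thus depends on annotated lengths, and which transcripts the cells express was not tested. *Vps39* and *Vps18* had like counts (686 to 759 and 679 to 745) but 8605 and 4786 exon bases. The order was *Vps33a* (317 ± 15.1, SD, n = 3), *Vps16* (306 ± 8.17), *Vps11* (282 ± 18.6), *Vps41* (201 ± 4.09), *Vps18* (149 ± 6.90), *Vps39* (83.8 ± 4.24), *Epg5* (83.4 ± 12.1), *Plekhm1* (82.4 ± 5.58) and *Vps8* (69.9 ± 3.36). The libraries of *Vps33a* and *Vps16* overlapped, as did those of *Vps16* and *Vps11*, of *Vps39* and *Epg5*, and of *Epg5* and *Plekhm1*. The other neighbours were separate. *Vps33a* stood at the 76.6th percentile of the tested genes and *Vps8* at the 39.5th.

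**Figure D1:**
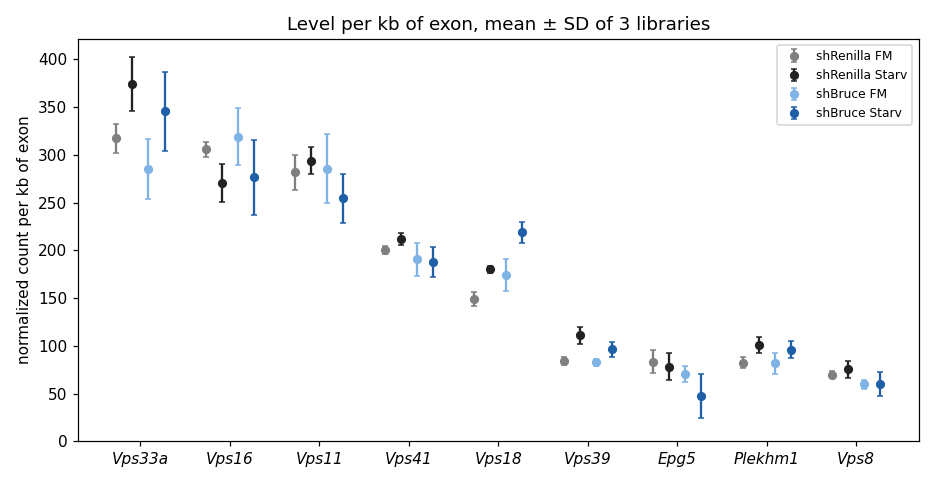
Normalized counts per kb of exon (vertical axis) of the 9 genes in the 4 conditions, as mean and SD of 3 libraries. *Vps33a*, *Vps16* and *Vps11* are the highest in shRenilla FM at 282 to 317, and *Vps39*, *Epg5*, *Plekhm1* and *Vps8* lie between 69.9 and 83.8.

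The first comparison asked whether starvation changed these transcripts in control cells. *Vps39*, which encodes a GTPase-binding end of HOPS, rose 1.33-fold and was the only one of the 9 genes called at an adjusted p under 0.05, against 17% of all genes tested. *Plekhm1*, *Vps18* and *Vps33a* had estimates of 0.24 to 0.29 on the log2 scale that did not pass. The 9 genes had a median log2 fold change of 0.11, against -0.01 for all genes tested. Of the 9 estimates 7 were above 0, as were 6017 of all 12154. With each library's length and GC trend removed, the *Vps41* estimate was -0.05 and no other changed sign. The median in that fit was not computed.

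*Vps39* stood at 686, 717 and 759 normalized counts in shRenilla FM and at 1018, 974 and 873 in shRenilla Starv. Every starved library was above every fed one. The log2 fold change was 0.41 (SE 0.11, 95% confidence interval 0.16 to 0.65, edgeR adjusted p = 0.0252). The call was lost without shRenilla FM replicate 1, 2 or 3 (adjusted p = 0.109, 0.0928 and 0.0611) and without shRenilla Starv replicate 1 or 2 (0.121 and 0.0979), with log2 fold changes of 0.36 to 0.44. In those 5 fits the share of all genes called fell from 17% to between 9.34% and 9.94%, and without shBruce Starv replicate 1 or 3 it was 26.2% and 25.5%. The call was also lost with no filter on low counts (adjusted p = 0.0983, 10.0% of all genes called). With each library's length and GC trend removed it was kept (edgeR adjusted p = 0.022, 23.0% of all genes called). The log2 fold change was then 0.30, the lowest of all alternatives. *Vps39* has 8605 exon bases.

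*Vps18*, which encodes a core subunit with a RING domain, stood at 679, 745 and 715 normalized counts in shRenilla FM and at 875, 844 and 867 in shRenilla Starv. The groups did not overlap, and the log2 fold change was 0.27 (95% confidence interval 0.04 to 0.51, edgeR adjusted p = 0.101). It passed with each library's length and GC trend removed (0.30, adjusted p = 0.0207), with upper-quartile normalization (0.35, adjusted p = 0.0414) and without shBruce Starv replicate 1 (0.29, adjusted p = 0.0426).

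*Plekhm1*, an adaptor that joins RAB7 and Atg8 proteins to HOPS, had 456, 496 and 522 normalized counts in shRenilla FM and 636, 625 and 545 in shRenilla Starv. *Vps33a*, the SNARE-binding subunit, had 1437, 1554 and 1568 against 1843, 1895 and 1639. In both the starved libraries were all above the fed ones. The edgeR log2 fold changes were 0.29 for *Plekhm1* (95% confidence interval 0.01 to 0.58, adjusted p = 0.146) and 0.24 for *Vps33a* (-0.03 to 0.51, adjusted p = 0.214).

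For *Vps16*, whose product holds Vps33a in the complex, the starved libraries were all below the fed ones, at 927 to 1068 against 1107 to 1167 normalized counts (log2 fold change -0.18, 95% confidence interval -0.45 to 0.10, edgeR adjusted p = 0.371). *Vps11* (0.06), *Vps41* (0.08), *Vps8* (0.11) and *Epg5* (-0.09) had intervals that included 0 and libraries that overlapped. In all, 5 of the 9 genes had libraries that did not overlap between FM and Starv, which was so for 52.4% of all genes tested.

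How many of the 9 genes passed depended on the libraries that entered the fit. When edgeR was fitted to the 6 shRenilla libraries alone, *Vps39* (0.43, adjusted p = 0.00350), *Vps18* (0.29, 0.0114), *Plekhm1* (0.31, 0.0234) and *Vps33a* (0.26, 0.0286) passed. These are 4 of 9 genes, where 41.9% of all genes tested passed in that fit.

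**Figure D2:**
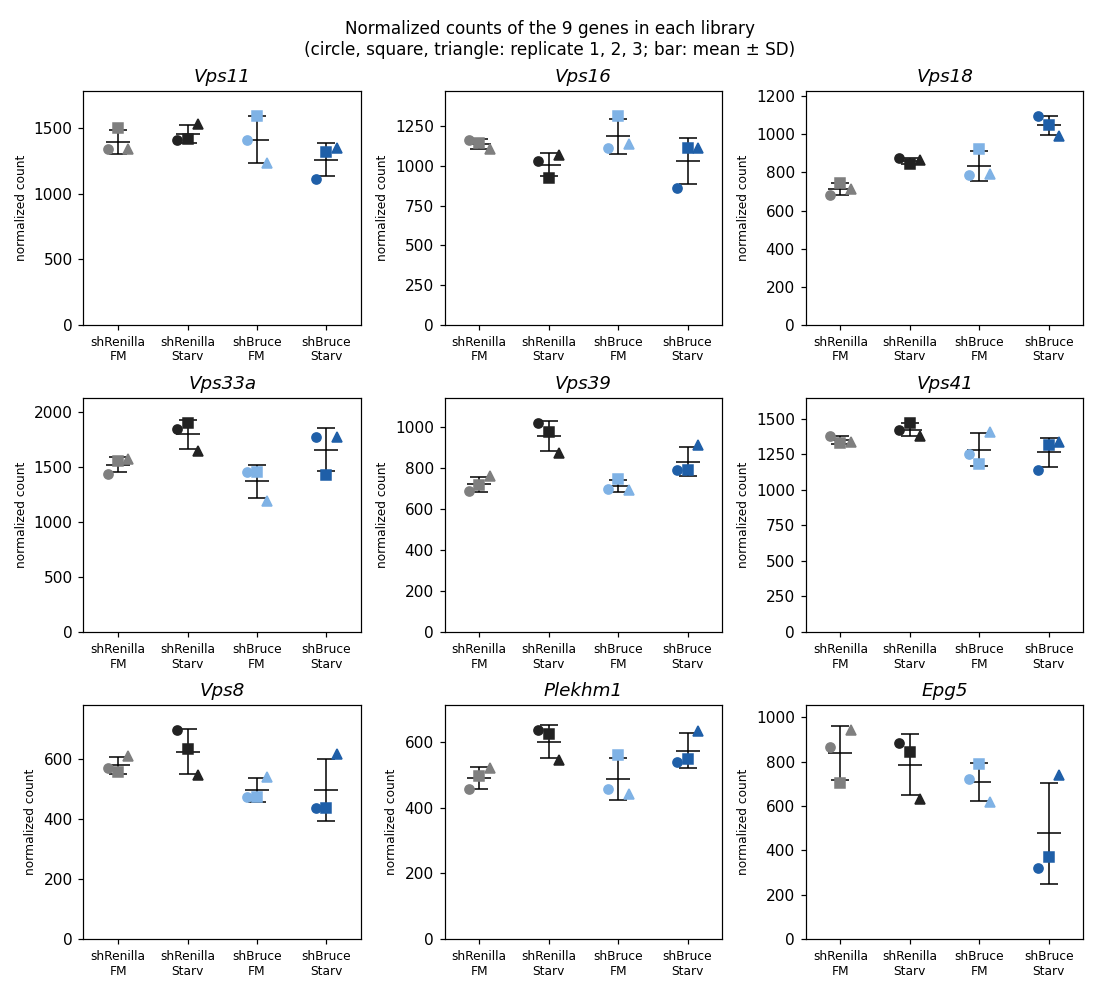
Normalized counts (vertical axis, from 0) of each of the 9 genes in the 12 libraries, grouped by line and medium, with mean and SD of 3 libraries. *Vps39* lies at 686 to 759 in shRenilla FM and 873 to 1018 in shRenilla Starv, and *Epg5* in shBruce Starv spreads from 321 to 738.

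The same starvation was then compared in shBruce MEFs. *Vps18* rose 1.26-fold and was again 1 of 9 genes called, against 23% of all genes tested. The median log2 fold change of the 9 genes was 0.01, against 0.02 for all genes tested, with 5 of 9 estimates above 0.

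*Vps18* stood at 787, 923 and 789 normalized counts in shBruce FM and at 1096, 1051 and 994 in shBruce Starv, with every starved library above every fed one. The log2 fold change was 0.33 (SE 0.11, 95% confidence interval 0.09 to 0.56, edgeR adjusted p = 0.0438). The call lies close to the threshold. Of 12 fits that each left out 1 library it was kept in 2, those without shBruce FM replicate 2 (0.41, adjusted p = 0.0362) or shBruce Starv replicate 3 (0.36, adjusted p = 0.0267). In the other 10 the log2 fold change was 0.28 to 0.33 and the adjusted p was 0.0593 to 0.150. Without a filter on low counts it was 0.187 (14.1% of all genes called) and in a fit of the 6 shBruce libraries alone 0.234 (8.11%).

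*Vps39* had 697, 748 and 690 normalized counts in shBruce FM and 789, 791 and 910 in shBruce Starv. The groups did not overlap, yet the log2 fold change of 0.22 did not pass (95% confidence interval -0.02 to 0.47, edgeR adjusted p = 0.171). *Vps39* and *Vps18* were the 2 of 9 genes without overlap, against 30.9% of all genes tested.

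*Vps33a* had an estimate of 0.28 (95% confidence interval 0.00 to 0.55, edgeR adjusted p = 0.131), from 1455, 1454 and 1191 normalized counts in FM to 1768, 1427 and 1772 in Starv. It passed with upper-quartile normalization (adjusted p = 0.0462) and without shBruce Starv replicate 2 (0.37, adjusted p = 0.0486). The estimate was 0.24 for *Plekhm1* (adjusted p = 0.211), -0.20 for *Vps16*, -0.16 for *Vps11*, -0.02 for *Vps41* and 0.01 for *Vps8*, none of which passed.

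*Epg5* encodes a RAB7 effector that steadies the SNARE assembly between autophagosome and lysosome. Its log2 fold change was -0.56 (95% confidence interval -1.12 to 0.00, edgeR adjusted p = 0.140). Single shBruce Starv libraries moved this value both ways. It was -0.36 without replicate 1 (adjusted p = 0.327), -0.40 without replicate 2 (0.329) and -1.03 without replicate 3 (0.00155). In the fit without replicate 3, 32.7% of all genes were called, against 23.0% with all 12 libraries.

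Whether the lines responded differently to starvation was tested by the interaction of line and medium. None of the 9 genes passed, nor did any of the genes tested (0%), of which 474 were at an unadjusted p under 0.05 with edgeR, and DESeq2 also called 0. The difference of responses, shBruce minus shRenilla, was -0.18 for *Vps39* (95% confidence interval -0.53 to 0.16) and 0.06 for *Vps18* (-0.28 to 0.39). The widest interval was that of *Epg5* (-0.47, 95% confidence interval -1.26 to 0.32). *Vps39* passing in shRenilla and *Vps18* in shBruce are thus not shown to be particular to a line.

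The effect of the hairpin was first compared in FM. None of the 9 genes was called and 0% of all genes tested were. At an unadjusted p under 0.05 there were 0 of the 9 and 1750 of all genes with edgeR. DESeq2 called 0 of the 9 and 71 of all genes (0.584%), limma-voom 0 of either, and edgeR fitted to the 6 FM libraries alone 0 of the 9 and 597 of all genes (5.11%). The median log2 fold change was -0.02, against 0.01 for all genes tested. *Vps18* was higher in every shBruce FM library than in any shRenilla FM library (log2 fold change 0.22, 95% confidence interval -0.01 to 0.46, edgeR adjusted p = 0.358). *Vps8*, the subunit that targets CORVET to RAB5-bearing endosomes, was lower in every one, at 474 to 542 against 557 to 610 normalized counts (-0.22, 95% confidence interval -0.55 to 0.11, adjusted p = 0.472). *Vps18* and *Vps8* were the 2 of 9 genes without overlap, against 33.4% of all genes tested. With the length and GC trend removed the *Vps8* estimate was -0.09.

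For the other 7 genes in FM the edgeR log2 fold change lay between -0.24 (*Epg5*) and 0.06 (*Vps16*). The interval for *Vps41*, the subunit that meets ARL8 on lysosomes, was -0.31 to 0.16, for *Vps39* -0.26 to 0.22 and for *Vps11* -0.25 to 0.28. For *Epg5* it was -0.80 to 0.31, the widest of the 9.

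**Figure D3:**
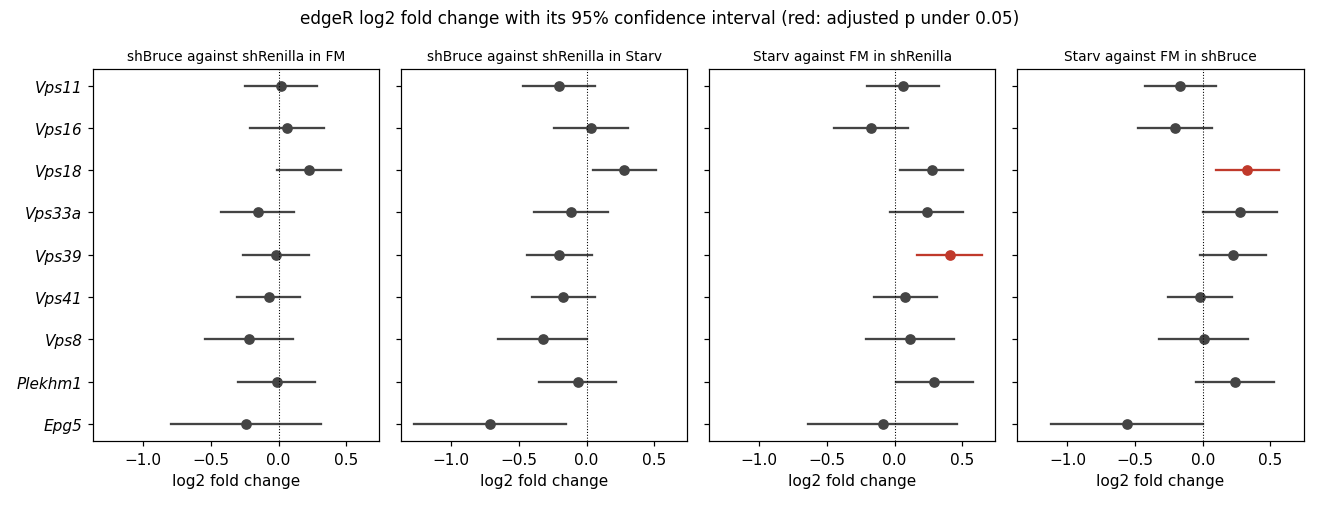
edgeR log2 fold changes (horizontal axis) of the 9 genes with 95% confidence intervals in the 4 comparisons, red where the adjusted p is under 0.05. *Vps39* in shRenilla (0.41) and *Vps18* in shBruce (0.33) after starvation are red, and the *Epg5* intervals are the widest.

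After starvation edgeR called none of the 9 genes between the lines, against 23.9% of all genes tested (2907). *Epg5* and *Vps18* had an unadjusted p under 0.05. DESeq2 called both, *Epg5* lower (adjusted p = 0.0336) and *Vps18* higher (adjusted p = 0.0302), where it called 31.0% of all genes. With limma-voom *Epg5* was called (adjusted p = 0.0466), with 22.8% of all genes. The median log2 fold change was -0.17, against -0.00 for all genes tested. Of the 9 estimates 7 were below 0, as were 6086 of all 12154. With each library's length and GC trend removed, the *Vps39* and *Vps41* estimates were above 0 and that of *Vps16* was below 0. The median in that fit was not computed.

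The count over all genes in this comparison rested on single libraries. Without shRenilla Starv replicate 1 or 2 it was 0 (3495 and 3409 at an unadjusted p under 0.05), and it was 573, 15 and 5735 when replicate 1, 2 or 3 of shBruce Starv was left out. It was also 0 in a fit of the 6 starved libraries alone (3662 at an unadjusted p under 0.05) and 1437 with the length and GC trend removed.

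*Epg5* stood at 886, 845 and 629 normalized counts in shRenilla Starv and at 321, 369 and 738 in shBruce Starv. Replicates 1 and 2 of shBruce Starv were the lowest of all 12 libraries, while replicate 3 lay within the shRenilla range. The log2 fold change was -0.71 (SE 0.26, 95% confidence interval -1.27 to -0.15, edgeR adjusted p = 0.0611). Without shBruce Starv replicate 3 it was -1.19 (adjusted p = 5.98e-04), and *Vps18* (adjusted p = 0.0350) and *Vps8* (-0.52, adjusted p = 0.00697) passed in that fit as well. Those are 3 of the 9 genes, where 46.7% of all genes were called. It also passed without shRenilla Starv replicate 3 (-0.85, adjusted p = 0.0478, 23.9% of all genes) and with no filter on low counts (-0.74, adjusted p = 0.0326, 14.9%).

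*Epg5* has 10039 exon bases, the most of the 9 genes, and libraries differed in how counts followed transcript length. The linear slope of each library's log2 CPM, relative to the mean of all 12 libraries, per doubling of exon length was -0.151 and -0.19 in shBruce Starv replicates 1 and 2 and 0.032 in replicate 3, against 0.176, 0.175 and 0.0294 in shRenilla Starv. The low *Epg5* libraries were thus those with the steepest negative slope. With the trend against length and GC content removed, the log2 fold change was -0.47 (adjusted p = 0.137). In the same fit the *Vps39* estimate went from -0.20 to 0.04 and the *Vps41* estimate from -0.17 to 0.15, neither called in either fit. The part of RNA quality or library preparation in these slopes was not tested.

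**Figure D4:**
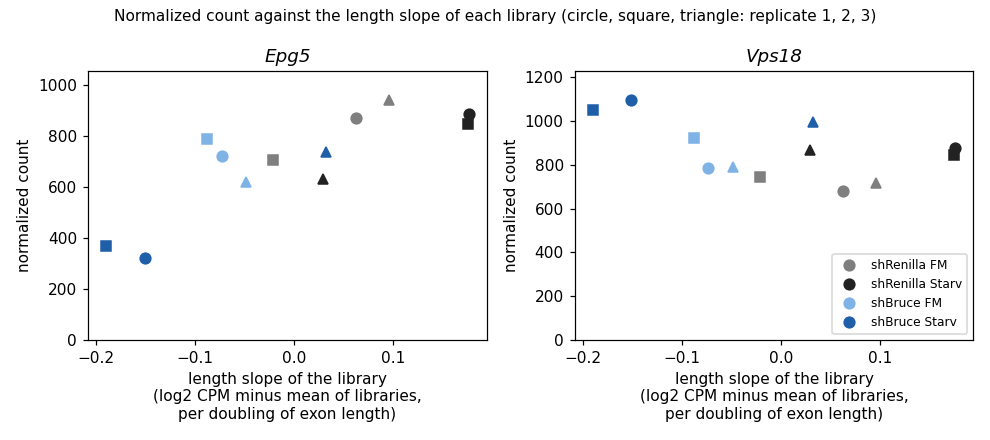
Normalized counts (vertical axis, from 0) of *Epg5* and *Vps18* in the 12 libraries against the slope of log2 CPM, relative to the mean of all libraries, per doubling of exon length (horizontal axis). For *Epg5*, shBruce Starv replicates 1 and 2 (321 and 369 counts) lie lowest, at slopes of -0.151 and -0.19, and for *Vps18* the 3 shBruce Starv libraries lie highest, at 994 to 1096.

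*Vps18* had 875, 844 and 867 normalized counts in shRenilla Starv and 1096, 1051 and 994 in shBruce Starv. The groups did not overlap and the log2 fold change was 0.28 (95% confidence interval 0.05 to 0.51, edgeR adjusted p = 0.0727), or 0.17 with the length and GC trend removed (adjusted p = 0.169). *Vps11* (1408 to 1530 against 1112 to 1343) and *Vps41* (1379 to 1469 against 1143 to 1335) were lower in every shBruce Starv library. Their log2 fold changes of -0.21 and -0.17 did not pass. These 3 of 9 genes had no overlap, against 34.9% of all genes tested. *Vps18* was the only one of the 9 whose libraries were separate in all 4 comparisons, which share groups of libraries pairwise.

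For *Vps8* the estimate in Starv was -0.32 (95% confidence interval -0.65 to 0.00, edgeR adjusted p = 0.125), from 696, 634 and 546 normalized counts in shRenilla to 438, 439 and 617 in shBruce. The library that stood apart was again shBruce Starv replicate 3. *Vps8* has 8279 exon bases. With the length and GC trend removed its estimate in Starv was -0.10, the nearest to 0 of all alternatives. *Vps39* (-0.20), *Vps33a* (-0.12), *Plekhm1* (-0.07) and *Vps16* (0.03) had intervals that included 0.

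The HOPS-specific subunits were then set against their CORVET counterparts within each library, which needs no scaling between libraries. The log2 ratio of *Vps39* to *Tgfbrap1* counts was 0.07, -0.04 and -0.10 in shRenilla FM and 0.43, 0.28 and 0.38 in shRenilla Starv. It was 0.05, 0.15 and 0.06 in shBruce FM and 0.57, 0.61 and 0.46 in shBruce Starv. In either line all starved libraries lay above all fed ones, by a mean of 0.39 in shRenilla and 0.46 in shBruce. Single genes were separate between FM and Starv in 52.4% of cases in shRenilla and 30.9% in shBruce. No such share was computed for ratios of 2 genes, so how unusual a separate ratio is was not tested. The ratio in shRenilla also shares its *Vps39* counts with the call given above. The ratio tests were chosen with earlier results of these data known.

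For each of these the exact two-sided permutation test gave p = 0.1, the smallest that 3 against 3 libraries allow, and 0.2 after adjustment over the 8 tests of both ratios. The rise of the ratio came with a higher *Vps39* and a *Tgfbrap1* log2 fold change of 0.02 (edgeR adjusted p = 0.944) in shRenilla. In shBruce the *Tgfbrap1* estimate was -0.23 (edgeR adjusted p = 0.238). With the length and GC trend removed the differences were 0.38 and 0.44. Between lines the ratio was higher in shBruce by 0.11 in FM and 0.18 in Starv, where libraries did not overlap (exact permutation p = 0.3 and 0.1).

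The log2 ratio of *Vps41* to *Vps8* counts was 1.22 ± 0.08 (SD, n = 3) in shRenilla FM, 1.20 ± 0.15 in shRenilla Starv, 1.37 ± 0.04 in shBruce FM and 1.36 ± 0.23 in shBruce Starv. Starvation moved its mean by -0.03 in shRenilla and -0.01 in shBruce, less than the SD of any group, with overlapping libraries (exact permutation p = 0.8 and 0.9). In FM every shBruce library was higher than any shRenilla library, by a mean of 0.15 (exact permutation p = 0.1). In Starv the difference was 0.16 and the libraries overlapped (exact permutation p = 0.4).

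**Figure D5:**
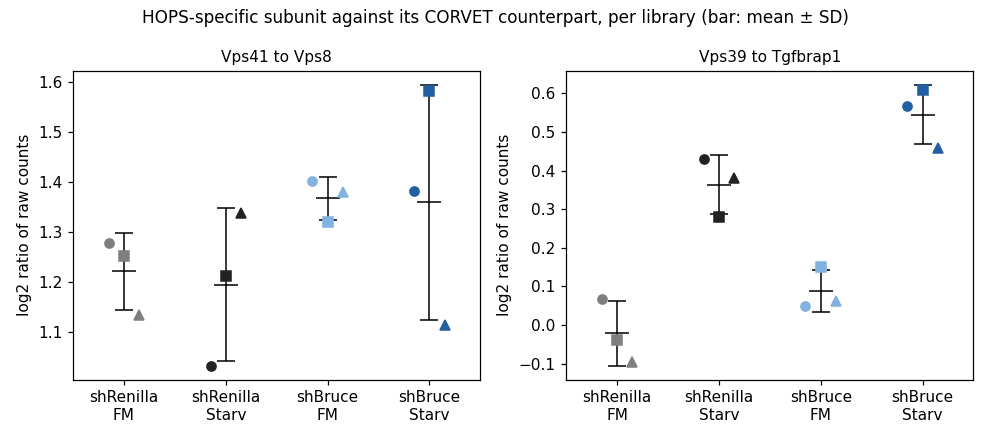
log2 ratio of raw counts (vertical axis, which does not start at 0) of *Vps41* to *Vps8* and of *Vps39* to *Tgfbrap1* in each of the 12 libraries, with mean and SD of 3 libraries. The *Vps39* to *Tgfbrap1* ratio is higher in all starved libraries (0.28 to 0.61) than in all fed ones (-0.10 to 0.15), and the *Vps41* to *Vps8* ratio shows no such separation. The share of other gene pairs with such a separation was not computed.

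Genes with the most similar pattern were sought among those with a mean level within 1 log2 unit, by the root mean square difference of the 4 centred condition means on the log2 scale. For *Vps39* these were *Inpp5e* (0.0137), *Ppip5k1* (0.0159) and *Gbas* (0.0222) of 4361 genes. For *Vps18* they were *Btbd2* (0.0246), *Fzd2* (0.0317) and *Slc35f6* (0.0322) of 4367.

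Related genes were read from a list of 46, of which 45 were tested (*Vamp7* was not). It held 8 fusion SNAREs and 20 genes of RAB7, RAB2 and ARL8 recruitment. It also held 8 genes of the lysosome-positioning complex BORC, 7 of a RAB5 module and 3 for subunits of CORVET or a related complex. The list thus reaches beyond the fusion step, to early endosomes and lysosome positioning. After starvation 1 of the 45 was called in shRenilla, where 17% of all genes were: *Atg14*, which encodes the phosphatidylinositol 3-kinase subunit that also tethers autophagosomes. *Atg14* went from 256, 267 and 282 normalized counts to 848, 871 and 814, a 3.15-fold rise (log2 fold change 1.65, edgeR adjusted p = 1.62e-06). In shBruce it rose 3.22-fold (1.69, adjusted p = 9.97e-07), with *Loh12cr1* (0.60, adjusted p = 0.0476), an older symbol of the BORC lysosome-positioning subunit *Borcs5*, and *Osbpl1a* (0.53, adjusted p = 0.0251), a RAB7 effector. These were 3 of 45, against 23% of all genes. *Atg14* was called under every alternative in both lines. The count in shRenilla ranged from 1 to 17, where 9.34% to 41.9% of all genes were called. The 17 came from the fit of its 6 libraries alone (41.9%). In shBruce the count ranged from 1 to 10, where 8.11% to 32.7% of all genes were called. The 10 came with the length and GC trend removed (30.4%).

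In FM edgeR called 0 of the 45 between the lines (0% of all genes), and 4 in a fit of the FM libraries alone (5.11%). After starvation it called 9 of the 45 between the lines, against 23.9% of all genes. Higher in shBruce were *Vamp8* (0.95, edgeR adjusted p = 0.0241), a lysosomal fusion SNARE, and the BORC subunits *Bloc1s1* (0.94), *2310047M10Rik* (0.92), *2010012O05Rik* (0.88) and *Kxd1* (0.45). Lower were *Rab5a* (-0.88), the early endosome GTPase, and the GTPase-activating proteins *Tbc1d15* (-0.66), *Tbc1d2b* (-0.62) and *Tbc1d5* (-0.52). The fusion SNAREs *Stx17* (-0.38, edgeR adjusted p = 0.0516) and *Snap29* (-0.40, adjusted p = 0.103) and the GTPase *Rab7* (-0.61, adjusted p = 0.120) did not pass. In shBruce Starv the counts were 1516, 1098 and 660 for *Vamp8*, 1179, 805 and 532 for *Bloc1s1*, 501, 249 and 218 for *2010012O05Rik* and 311, 552 and 752 for *Rab5a*. In these, replicate 3 lay nearest to shRenilla Starv, whose libraries reached 657, 514 and 195 and, for *Rab5a*, went down to 947.

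The 9 calls rested on the same libraries as the count over all genes. Leaving out shRenilla Starv replicate 1 or 2 gave 0 calls (0% of all genes). Leaving out replicate 1, 2 or 3 of shBruce Starv gave 3, 0 and 23 calls, where 4.68%, 0.122% and 46.7% of all genes were called. With the length and GC trend removed 3 remained (*Rab5a*, *Tbc1d15* and *Vamp8*), against 11.8% of all genes. In a fit of the 6 starved libraries alone 0 did (0% of all genes). The part of RNA quality or preparation in these libraries was not tested.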

How the data were processed

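Poly(A) RNA was sequenced as single-end reads. Per the labels and methods, the authors aligned reads with STAR 2.4.0d to mm10 and counted them with HTSeq 0.5.4p3; the strand setting and annotation are not given in the sources used here. The deposited table holds raw counts per gene for 12 libraries (7717265 to 18510540 in total). Of its names, 27 had become dates (0.296% of counts) and match no gene here.

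Raw counts were tested with edgeR 4.0.16 (TMM, filterByExpr, quasi-likelihood, all 4 conditions in 1 fit, two-sided). P-values were adjusted by the Benjamini-Hochberg method over 12154 genes and called under 0.05. Depth limits precision through the intervals given. Exon lengths were the bases in any annotated exon of a gene in GENCODE M21 (GRCm38). Length slopes were linear fits, and the trends removed against exon length and GC content were splines with 4 degrees of freedom. Ratios were compared by exact permutation of libraries. Alternatives were DESeq2 1.42.0, limma-voom 3.58.1, other scalings and filters, fewer libraries, a replicate block and the trend removed. Scripts were tested on simulated data. The members, lists and tests were chosen with earlier results of these data known. All 9 genes are named, as are *Birc6*, the listed pathway genes that were called, *Rab7*, *Stx17*, *Snap29*, *Vamp8* and *Tgfbrap1*.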

Additional observations from a re-analysis of the deposited data

How the results depend on the processing

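All alternatives gave 0 of the 9 genes called between lines in FM and for the interaction. Between lines in Starv, where 0 were called, DESeq2 gave 2 (31.0% of all genes called), limma-voom 1 (22.8%) and no filter 1 (14.9%). For starvation in shRenilla (1 called), upper-quartile normalization gave 2 (18.3% of all genes), no filter 0 (10.0%), the length and GC trend removed 2, without or with the replicate block (23.0% and 20.1%), and a fit of the compared groups alone 4 (41.9%). For starvation in shBruce (1 called), the counts were 2 with upper-quartile normalization (24.1%), 0 with no filter (14.1%) and 0 with the compared groups alone (8.11%). Leaving out 1 library gave 0 to 3 genes between lines in Starv, 0 to 2 for starvation in shRenilla and 0 to 2 in shBruce, where 0 to 46.7%, 9.34 to 26.2% and 15.1 to 32.7% of all genes were called. Between lines in Starv the 2907 calls over all genes were 1932 with the replicate block, 1437 with the trend removed and 1 with both. The cause of these differences was not tested.

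The labels do not say whether libraries with the same replicate number shared a batch. Same-numbered libraries correlated between -0.456 and 0.157 after removing group means. Each library matched its own number best in 1 of the 4 comparisons, that of the lines in FM. With the replicate number as a block, 0 genes were called for starvation in shRenilla (*Vps39* adjusted p = 0.0533) and 0 in shBruce (*Vps18* adjusted p = 0.0747), and edgeR calls of members did not change elsewhere.

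No gene that was called changed sign. Uncalled log2 fold changes near 0 did. With the trend removed, without and with the block, they were 0.11 and 0.11 for *Vps39* and 0.13 and 0.13 for *Vps41* between lines in FM. In Starv they were -0.024 and -0.029 for *Vps16*, 0.037 and 0.035 for *Vps39* and 0.15 and 0.15 for *Vps41*. For *Vps41* they were -0.048 and -0.048 for starvation in shRenilla and 0.025 and 0.023 for the interaction. Upper-quartile normalization gave 0.0036 for *Plekhm1* between lines in FM and 0.068 for *Vps41* under starvation in shBruce, and no filter gave -0.031 for *Vps8* there.

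Leaving out 1 library gave these ranges across 0. Between lines in FM they were -0.076 to 0.11 (*Vps11*), -0.017 to 0.11 (*Vps16*), -0.056 to 0.020 (*Vps39*) and -0.13 to 0.051 (*Plekhm1*), and in Starv -0.029 to 0.13 (*Vps16*). For starvation they were -0.21 to 0.046 (*Epg5*, shRenilla), -0.079 to 0.049 (*Vps41*, shBruce) and -0.18 to 0.092 (*Vps8*, shBruce). For the interaction they were -0.091 to 0.055 (*Vps16*), -0.0054 to 0.13 (*Vps18*), -0.054 to 0.13 (*Vps33a*) and -0.14 to 0.059 (*Plekhm1*). The starvation difference of the *Vps41* to *Vps8* ratio ranged from -0.099 to 0.054 in shRenilla and from -0.12 to 0.11 in shBruce. With 3 libraries per condition the 95% intervals of the 9 genes reached 0.23 to 0.56 to either side on the log2 scale in the comparisons of lines or media, and 0.33 to 0.79 for the interaction.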
